A study of Homo sapiens with 12 samples.

Results

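Calcipotriol (CPT), a Vitamin D analogue, was given for 24 h to MiaPaca2 cells that had received no epigenetic priming, and their RNA was compared with that of vehicle-treated cells across all genes. MiaPaca2 is an established human cell line from a pancreatic ductal adenocarcinoma (PDAC). The comparison used 6 of the 12 RNA-seq libraries of the study, 3 from cells with DMSO vehicle (Con) and 3 from cells with CPT at 1 µM. The other 6 came from cells primed with glyceryl triacetate (GTA) at 2 mM and 5-Aza-2′-deoxycytidine (5-Aza) at 1 µM for the same 24 h. Of these, 3 had vehicle (GTA+5-Aza) and 3 had CPT at 1 µM (CPT+GTA+5-Aza). They were read to ask whether a gene moved alike there. They were also in the same fit, and so shared in its low-count filter, scaling and estimate of spread. GTA is an acetate donor that raises histone acetylation, and 5-Aza is an inhibitor of DNA methyltransferases. All libraries were from 1 cell line, and the labels do not say whether replicates were separate cultures. P values set a difference against the spread between libraries, pooled over the 4 groups, and not between cultures known to be separate.

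Vitamin D acts through the vitamin D receptor (VDR), a nuclear receptor that binds DNA as a dimer with a retinoid X receptor and recruits coactivators or corepressors. In responsive cells the hormone strongly induces CYP24A1, the hydroxylase that inactivates it, together with genes of calcium transport, growth arrest and innate defence. The comparison addresses what the analogue did to transcription in a cell line that was studied as Vitamin D-resistant.

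Few transcripts moved far. Among 17123 genes tested, 118 were higher and 195 lower with CPT by more than 1.5-fold with P under 0.05, unadjusted, by edgeR's quasi-likelihood method (differentially expressed genes, DEGs), which is 0.689% and 1.14% of all genes tested and 1.83% together. The wording of the study also allows a test against a 1.5-fold change itself, which edgeR's glmTreat gives, and then 49 were higher and 78 lower. After Benjamini-Hochberg adjustment over all genes 0 passed at 0.05 in edgeR's quasi-likelihood test, 733 (4.28%) had an unadjusted P under 0.05, 1.85% of all genes being higher and 2.43% lower, and 4 passed in DESeq2. The smallest adjusted p, 0.107 for SHH, came from edgeR with Benjamini-Hochberg adjustment. Below, a gene is called higher or lower where its unadjusted P was under 0.05 in that test, values in brackets are log2 fold changes, and levels are raw counts or CPM (counts scaled to the library size with edgeR's TMM factors). For 10727 genes, 62.6% of those tested, the 95% interval of the fold change lay within 1.5-fold in either direction. The median log2 fold change was 0.0023.

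The DEGs were mostly scarce transcripts. Their median level was 1.17 CPM against 15.5 CPM over all genes tested, and 290 of the 313 were under 5 CPM (92.7%, against 33.9% of all genes). Of the 2603 genes under 1 CPM, 5.57% were DEGs, and of the 4654 genes over 50 CPM, 0. An unadjusted P under 0.05 was reached by 5.57% of the genes under 1 CPM, 4.43% of those from 10 to 50 CPM and 2.54% of those over 50 CPM, where 55 were higher and 63 lower. Protein-coding genes made up 56.2% of the DEGs and 72.2% of the genes tested, and 79 DEGs were long noncoding RNAs. The most abundant lower DEGs were identifiers without a symbol in the annotation used, picked after their values were seen. ENSG00000258486 had 605, 1478 and 493 counts in Con and 365, 256 and 58 in CPT. ENSG00000170727 had 484, 912 and 660 against 231, 676 and 270, which overlap, and ENSG00000265150 had 673, 1454 and 374 against 341, 311 and 61. Con replicate 2 was the highest library in each. CPT replicate 3 was the lowest for ENSG00000258486 and ENSG00000265150, and CPT replicate 1 for ENSG00000170727.

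**Figure D1:**
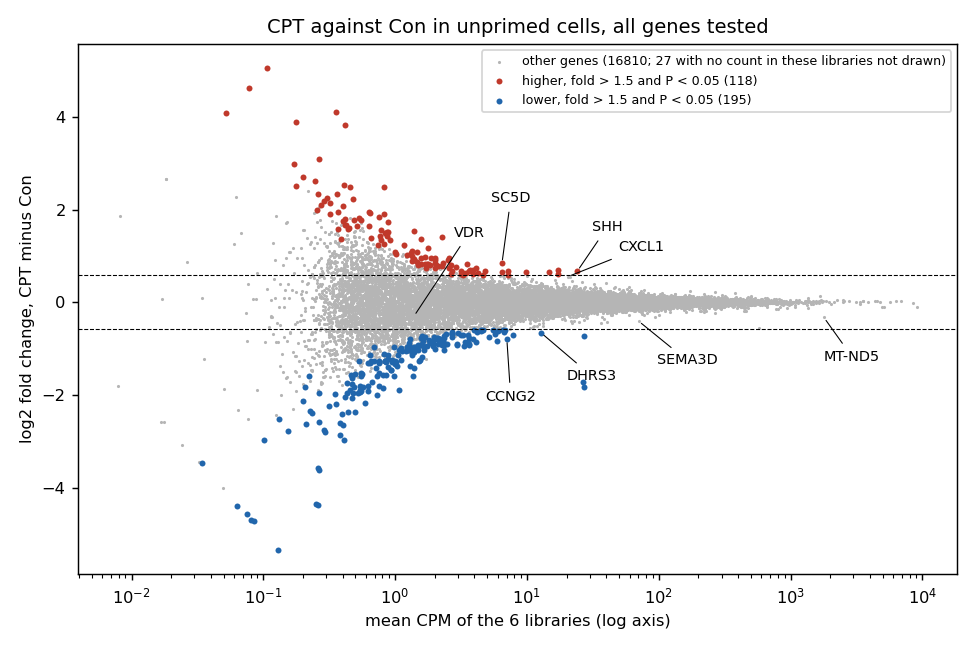
Each dot is a gene tested; the horizontal axis is its mean CPM over the 6 unprimed libraries (log axis) and the vertical axis its log2 fold change, CPT minus Con, with dashed lines at 1.5-fold. The 118 higher (red) and 195 lower (blue) DEGs lie mainly below 5 CPM, and SHH, CXCL1, SEMA3D and MT-ND5 stand at the edge of the narrower spread of more abundant genes.

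The libraries were of similar depth, 19281290 to 21224665 counts in Con and 18476768 to 20564807 in CPT, but the CPT libraries differed more among themselves. Their counts disagreed by a chi-square per degree of freedom of 6.94 to 17.2 between pairs, against 4.81 to 7.47 in Con, so none was the same library deposited again. CPT replicates 2 and 3 were the widest pair. They lay at opposite ends of the first principal component (33.4 and -44.3, 26.6% of the variance) and differed in how counts varied with GC content, by 0.11 and -0.26 log2 units between genes of 60% and of 40% GC. Without CPT replicate 2 there were 308 lower DEGs. The 733 genes with an unadjusted P under 0.05 became 1168 without CPT replicate 2 and 1195 without CPT replicate 3. With only Con and CPT in the fit, and so without the spread of the primed libraries, they became 492 of 17096 tested. After removal of these GC trends, which was tried once the data had been seen, there were 123 higher and 199 lower, and 4 genes passed adjustment. Markers gave the cells the look of the line: KRT8 had 25823 to 34350 counts per library and VIM 114753 to 129496, whereas CDH1 and EPCAM had at most 1. Defining markers of leukocytes (PTPRC, CD3E), endothelium (PECAM1, CDH5) and acinar cells (PRSS1, CPA1) had 0 to 2 counts. Other listed markers had low counts, such as 9, 8 and 16 in Con and 6, 11 and 14 in CPT for the leukocyte gene CD14, and 27, 14 and 37 against 14, 13 and 34 for the endothelial gene ESAM.

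SHH, the Sonic hedgehog ligand, was the clearest change. Its counts were 283, 456 and 394 in Con and 527, 620 and 545 in CPT, so every CPT library was above every Con library. The level was 18.6 ± 3.46 CPM (SD, n = 3) in Con and 29.7 ± 0.76 CPM in CPT. The log2 fold change of SHH was 0.68 (SE 0.12). CCNG2, an atypical cyclin linked to cell cycle arrest, went the other way, with 210, 145 and 182 counts in Con and 97, 89 and 105 in CPT. These groups did not overlap either. The log2 fold change of CCNG2 was -0.79 (SE 0.19, adjusted p = 0.701 in edgeR with Benjamini-Hochberg adjustment).

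The 250 bases before the RefSeq start of these genes are shown because the study names both genes for this comparison. They were searched for the VDR half-site AGGTCA and its variants AGTTCA as well as GGGTCA or else GGTTCA on both strands, singly and as pairs 3 bases apart, and any match would stand in capitals. The sequences are from RefSeq on GRCh38.p14, SHH at chr7:155812464-155812713 on the minus strand and CCNG2 at chr4:77156957-77157206 on the plus strand, each 5′ to 3′.
SHH: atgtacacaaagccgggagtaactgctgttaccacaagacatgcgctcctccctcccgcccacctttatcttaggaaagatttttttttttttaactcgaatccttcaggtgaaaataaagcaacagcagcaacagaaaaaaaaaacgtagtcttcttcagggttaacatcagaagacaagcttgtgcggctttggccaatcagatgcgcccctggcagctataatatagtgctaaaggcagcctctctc
CCNG2: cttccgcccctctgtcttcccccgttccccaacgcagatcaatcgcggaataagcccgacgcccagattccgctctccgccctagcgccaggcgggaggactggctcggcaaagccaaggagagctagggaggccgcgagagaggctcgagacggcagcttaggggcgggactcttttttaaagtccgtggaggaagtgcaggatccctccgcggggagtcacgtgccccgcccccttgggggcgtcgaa
Neither window, extended by 50 bases past the start, held these letters, which says nothing of the receptor's binding elsewhere. A half-site stood in 38.6% and a pair in 0.074% of 35116 such RefSeq windows. Shares within the DEGs are void, as a window was at hand for 44.9% of the higher and 52.3% of the lower genes.

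The receptor and its direct targets gave little signal. Of 19 genes of the vitamin D machinery 14 could be tested, and their median log2 fold change was -0.05. VDR itself was scarce, with 29, 34 and 30 counts in Con and 20, 29 and 22 in CPT. Its CPM values did not overlap between the groups, as was so for 8.02% of all genes tested (3.81% higher and 4.21% lower), but the log2 fold change of -0.30 (95% interval -1.07 to 0.47) has an interval on both sides of 0. RXRA, the main partner receptor, had 86.7 ± 3.44 CPM in Con and 92.7 ± 7.42 in CPT and was bounded within 1.5-fold. So were the coactivators NCOA1, NCOA2, NCOA3 and MED1 and the corepressor NCOR1, 12 of the 14 in all. CUBN, an endocytic receptor for the vitamin's carrier protein, was the 1 member with P under 0.05, where 4.28% of all genes had such a P. Its log2 fold change was -0.13 (SE 0.06), a call lost with only Con and CPT in the fit and without Con replicate 1 (-0.10), Con replicate 3 (-0.13), CPT replicate 1 (-0.13) or CPT replicate 2 (-0.07).

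CYP24A1 had 0 counts in all 6 libraries, which allows up to 3 counts in each, about 0.15 CPM in Con and 0.16 CPM in CPT. It was not detectable at this depth with or without the analogue. TRPV6, the intestinal calcium channel, CAMP, the antimicrobial peptide gene, and IGFBP3, THBD and SPP1 were also at 0 throughout, as were 15 of the 38 known VDR targets listed. Among the 18 that could be tested the median was 0.02, and 12 had values above 0 and 6 below. P was under 0.05 for 1 of them (5.56%, against 4.28% of all genes). That gene was SERPINB1, a protease inhibitor, with 652, 826 and 773 counts in Con and 791, 900 and 715 in CPT, which overlap, at a log2 fold change of 0.19. Its call was lost under 7 of 14 alternative fits, among them those without Con replicate 1, Con replicate 3, CPT replicate 1 or CPT replicate 2. CDKN1A, the p21 inhibitor, had 16, 7 and 9 counts in Con and 12, 21 and 5 in CPT, with an interval from -0.76 to 1.39 on the log2 scale.

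**Figure D2:**
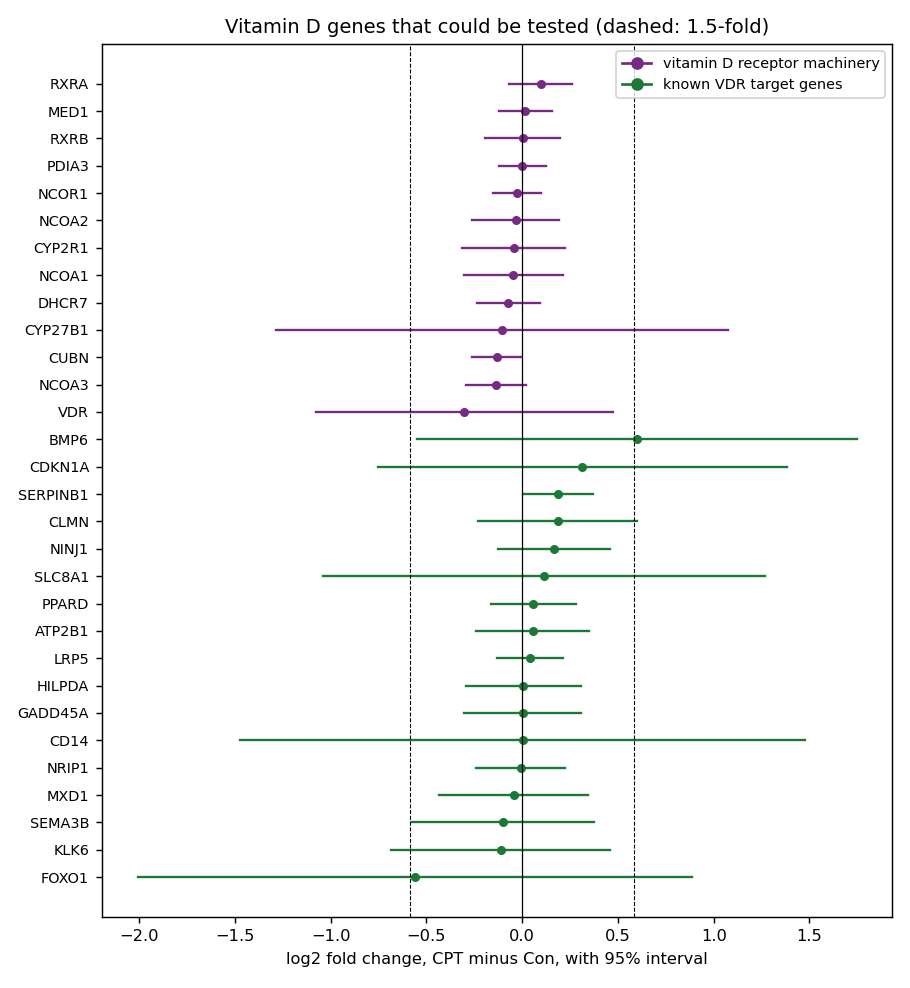
Log2 fold change (CPT minus Con, dot) with its 95% interval (line) for 30 tested vitamin D genes, the receptor machinery in purple and known VDR targets in green, with dashed lines at 1.5-fold. Abundant members such as RXRA, NCOR1 and LRP5 sit near 0 with short intervals, and scarce ones such as VDR, CYP27B1, CDKN1A and CD14 cross a dashed line.

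Among other genes of the Hedgehog pathway, the receptor and target PTCH1 had 91, 61 and 76 counts in Con and 70, 102 and 55 in CPT, and the signal transducer SMO had a log2 fold change of -0.01. GLI1, a standard target of the pathway, had 8 counts or fewer in every library and was not tested. GLI2, a transcription factor of the pathway, had 14, 34 and 30 counts in Con and 42, 29 and 56 in CPT, which overlap, at 0.82. The call on GLI2 was lost under 7 of 14 alternative fits, among them without Con replicate 1 (0.55), Con replicate 3 (0.92), CPT replicate 1 (0.80) or CPT replicate 3 (0.54). KIF7, the ciliary kinesin that regulates GLI processing, was lower in every CPT library, with 307, 307 and 360 counts in Con and 230, 252 and 226 in CPT (-0.37). In all, 14 of 20 members were tested, 2 were higher and 1 lower at P under 0.05, and the median was 0.00. The called genes, SHH itself among them, were 21.4% of those tested, against 4.28% of all genes. This list, like the others used here, was written with earlier results of these data known. The share includes SHH, known from those results, so it is no support for a response of the pathway.

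Beyond SHH, 8 genes of at least 5 CPM were DEGs on the higher side. SC5D, an enzyme late in cholesterol synthesis, had 119, 69 and 90 counts in Con and 181, 171 and 119 in CPT. The CPM values did not overlap, and the log2 fold change was 0.84. SQLE, an earlier enzyme of the same route, was higher by 0.21, a call lost with only Con and CPT in the fit and without Con replicate 1, Con replicate 3, CPT replicate 1 or CPT replicate 2. Of 27 genes of cholesterol synthesis tested, 2 were higher and 0 lower at P under 0.05 (7.41%, against 4.28% of all genes). The median was 0.03, and 25 were bounded within 1.5-fold. PAQR6, a membrane progestin receptor, was higher by 0.65, and the others were pseudogenes (TEKT4P2, LSM12P1, MTX1P1), the antisense RNA ADPGK-AS1 and 2 unnamed identifiers. Reads of the pseudogenes may be shared with near-identical copies, and the strand setting of the counting was not given in the sources used here, so these values are uncertain. MTX1P1 lost its call without CPT replicate 2 (0.40), and ADPGK-AS1 without Con replicate 1.

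Scarcer genes that were higher in every CPT library included MCC, a negative regulator of cell cycle progression, with 14, 8 and 21 counts in Con and 47, 31 and 39 in CPT (1.54). IDNK, a gluconokinase, had 24, 22 and 20 counts in Con and 47, 45 and 47 in CPT. FAM89A had 3, 0 and 5 against 12, 17 and 15. HSPA6, an inducible heat shock protein, had 1, 0 and 0 counts in Con and 4, 6 and 9 in CPT, a ratio of 20.2 with a 95% counting interval of 3.22 to 841. Levels this low give only a loose size. These genes were named for a small P without overlap, so the agreement of their libraries was fixed by that choice. Their adjusted p values ran from 0.96 to 0.998 in edgeR with Benjamini-Hochberg adjustment.

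DHRS3, a retinaldehyde reductase of retinoid metabolism, was a lower DEG. It had 302, 315 and 335 counts in Con and 139, 233 and 196 in CPT, with no overlap and a level of 15.7 ± 0.652 against 9.93 ± 2.02 CPM (-0.66, SE 0.16). KLF4, a zinc finger transcription factor of epithelial differentiation, had 175, 187 and 134 counts in Con and 116, 68 and 122 in CPT. Its groups overlapped in CPM, and its log2 fold change of -0.59 was -0.33 without CPT replicate 2, -0.50 without Con replicate 1 and -0.53 without Con replicate 2, and the call was lost in each of these fits. ZNF469 was lower in every CPT library (140, 186 and 171 counts against 116, 87 and 94), as were ZNF524 and GLTPD2.

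Among the lower DEGs, NTS, the neuropeptide neurotensin, had 115, 70 and 80 counts in Con and 40, 53 and 37 in CPT (-0.95). MUC6, a gel-forming mucin, had 89, 106 and 93 against 46, 66 and 31. TNC, the matrix protein tenascin C, had 14, 20 and 7 against 1, 4 and 2, a Con to CPT ratio of 5.50 with a counting interval of 2.44 to 14.5. USH1G had 13, 13 and 4 against 1, 0 and 0. Like SC5D, DHRS3 and GLTPD2, these 4 genes were named for a small P without overlap of libraries. In each of them the lack of overlap was fixed by that choice.

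Several abundant genes had a small P with a change under 1.5-fold. They fall outside the DEGs and were picked after their values were seen. SEMA3D, a secreted guidance semaphorin, had 1478, 1685 and 1688 counts in Con and 1113, 1115 and 1200 in CPT. All CPT libraries were lower, at 60.5 ± 5.36 against 80.0 ± 2.19 CPM, a log2 fold change of -0.40 (SE 0.08, adjusted p = 0.125 in edgeR with Benjamini-Hochberg adjustment). CXCL1, a neutrophil-attracting chemokine, was higher in all CPT libraries, with 315, 359 and 329 counts against 437, 511 and 434 (0.55, SE 0.11, adjusted p = 0.125 in edgeR with Benjamini-Hochberg adjustment). UCA1, a long noncoding RNA of many carcinomas, was higher by 0.23 at 246 ± 6.10 against 289 ± 6.39 CPM. With SHH these were the 4 genes at an adjusted p under 0.05 in DESeq2 and in edgeR with the GC trend removed.

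The relatives of these genes were looked up for context. CXCL8 had 179, 143 and 180 counts in Con and 187, 201 and 173 in CPT (0.25), CXCL5 had 0.14 and CXCL2 0.19, and CXCL1 was the 1 of 7 CXC chemokines tested that had P under 0.05. All 6 class 3 semaphorins tested had a value below 0, from -0.40 to -0.10, as had 8388 of all 17123 genes tested. Of the 6, SEMA3D alone had P under 0.05, with SEMA3A at -0.13 and SEMA3C at -0.11. DPH6, of diphthamide synthesis, was lower in every CPT library (814, 1008 and 999 counts against 596, 627 and 730), and TLNRD1 was higher in every one.

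Transcripts of the mitochondrial genome did not move as 1 block. MT-ND5, a subunit of respiratory complex I, had 38404, 40463 and 41809 counts in Con and 30915, 28432 and 30588 in CPT, with no overlap (-0.33). Several other subunits of the complex were near 0, among them MT-ND1 (0.05), MT-ND4 (0.02) and MT-ND2 (-0.03). MT-ND6, also of complex I, was at -0.12, with no overlap of libraries but P over 0.05. MT-CO1 of complex IV was at -0.10. Of 23 mitochondrial genes tested 6, MT-RNR1 among them, were lower and 0 higher at P under 0.05, and the median was -0.10. Over all genes tested 2.43% were lower and 1.85% higher. This family was looked up after values were seen. The threonine tRNA MT-TT had 59, 70 and 57 counts against 30, 31 and 31. For the small ribosomal RNA MT-RNR1, Con replicate 2 stood apart with 20748 counts against 10253 and 10481 in the other Con libraries, and without it the log2 fold change went from -0.55 to -0.18. The share of all counts on the mitochondrial genome was 4.18 to 4.69% in Con and 3.86 to 4.76% in CPT.

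**Figure D3:**
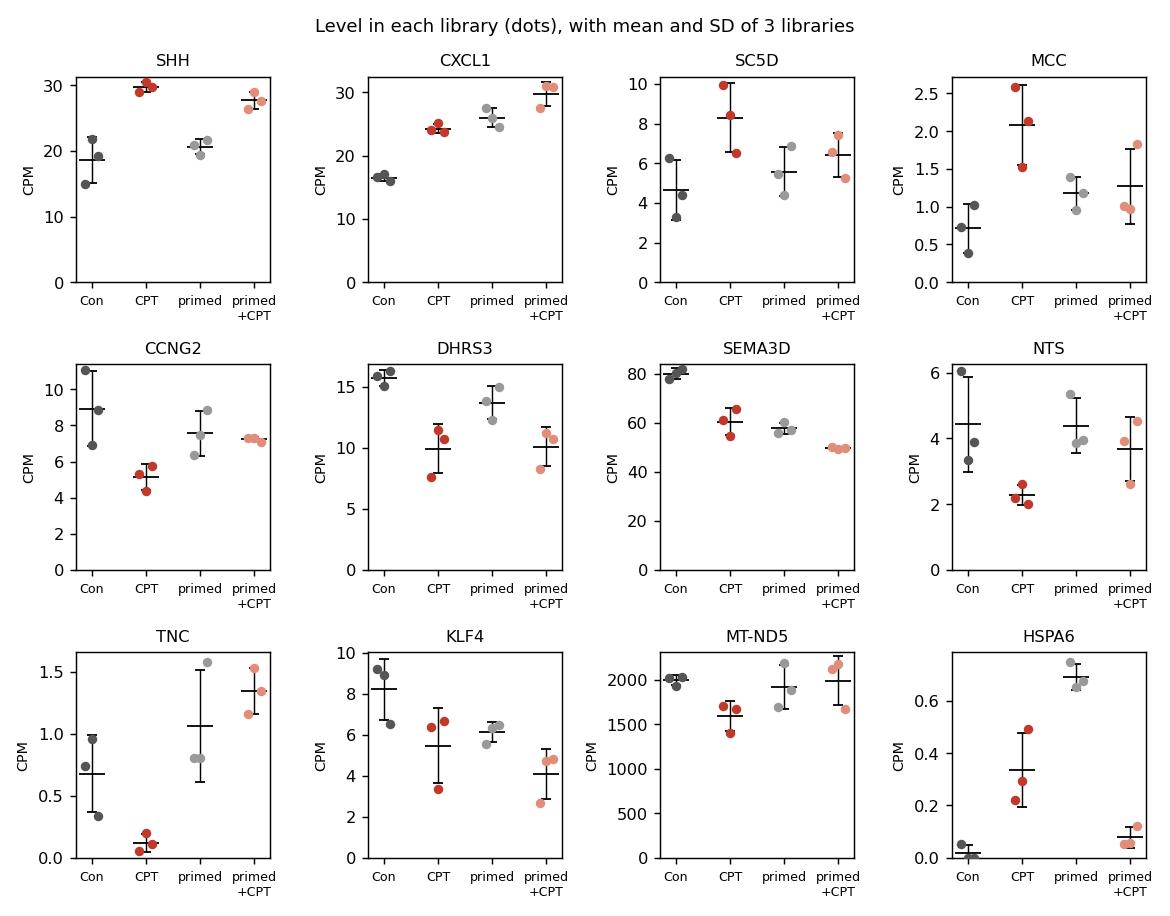
CPM of 12 genes in each library (dots, 3 per group) with the mean and SD (bars), for Con, CPT and the primed groups without and with CPT; all axes start at 0. SHH and CXCL1 were higher and CCNG2, DHRS3, SEMA3D, NTS, TNC and MT-ND5 lower in every CPT library than in every Con library, whereas the KLF4 groups overlapped.

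Genes of proliferation were close to flat. The mitotic and replication genes MKI67, TOP2A and MCM2 had log2 fold changes of 0.01, 0.04 and 0.02, and all 28 listed were bounded within 1.5-fold. RRM2, of deoxynucleotide synthesis, and CDC6, a replication licensing factor, were higher by 0.12 and 0.14. Both calls were lost with only Con and CPT in the fit and without Con replicate 3, CPT replicate 1 or CPT replicate 3. That of CDC6 was also lost without Con replicate 1, with the replicate block and without the low-count filter, and that of RRM2 without Con replicate 2. Among 25 cyclins, CDKs and inhibitors 0 were higher and 2 lower at P under 0.05 (8%, against 4.28% of all genes), CCNG2 and CDKN1C. The latter, the p57 inhibitor, had 172, 166 and 197 counts in Con and 118, 121 and 111 in CPT, all CPT libraries being lower (-0.52). MYC and CCND1 had -0.04 and 0.05.

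Of 35 apoptosis genes tested 1 was lower and 0 higher at P under 0.05 (2.86%, against 4.28% of all genes). It was BBC3, which encodes the death-promoting PUMA, with 12, 33 and 33 counts in Con and 0, 13 and 7 in CPT, where the groups overlapped in CPM (-1.86, SE 0.62). BAX and MCL1 had -0.04 and 0.07, and the list's median was 0.04. For adhesion, 1 of 22 genes (4.55%) was lower. It was NECTIN3, an immunoglobulin-like adhesion molecule, with 667, 611 and 646 counts against 507, 418 and 508 (-0.33). That call was lost without Con replicate 1 (-0.25) or CPT replicate 2 (-0.20). The tight junction gene CLDN4 had 363, 393 and 419 counts against 275, 359 and 296 (-0.25).

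Migration genes had a median of 0.00 over 31 members. ITGA3, an integrin subunit, was lower (-0.20), with overlapping libraries, a call lost without Con replicate 1, Con replicate 2, CPT replicate 1 or CPT replicate 3, and VIM, RAC1 and ITGB1 had 0.03, 0.01 and -0.00. TWIST1 was the other member with P under 0.05, and its counts were 0, 8 and 0 in Con and 0 in each CPT library. The call rests on Con replicate 2 alone and no fold change is given. TWIST1 passed the low-count filter only through the primed libraries, with 230, 159 and 235 counts in GTA+5-Aza and 208, 180 and 175 in CPT+GTA+5-Aza. Its call is therefore no result about unprimed cells. COL1A2, from the fibroblast list, was lower in every CPT library (15010, 16746 and 17320 counts against 12528, 14941 and 13977, -0.15), a call lost without CPT replicate 1 (-0.11). Of that list 4 of 10 genes could be tested, all had values below 0, the summed level ran from 880 to 932 CPM in Con and 780 to 848 in CPT, and the defining markers PDGFRA, LUM and FAP were at 0.

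Immediate-early and KLF transcription factors included 2 higher and 1 lower gene of 25 (12%, against 4.28% of all genes). EGR1, a growth factor-induced zinc finger protein, had 172, 260 and 229 counts in Con and 252, 264 and 279 in CPT (0.37), a call lost without Con replicate 1 or CPT replicate 3. KLF10, a TGF-beta-inducible factor, had 904, 1068 and 970 against 1096, 1158 and 1055 (0.26), and KLF4 was the lower one. In the lists of calcium handling, the ATF4 and unfolded protein response, glycolysis and hypoxia, and interferon-stimulated genes, 0 of 27, 24, 26 and 30 members had P under 0.05. STIM1, ATF4 and LDHA, members of the first 3 of these lists in turn, had 0.05, 0.11 and -0.00. Over all 14 lists, 18 of 343 distinct genes had P under 0.05, 9 in each direction, with TWIST1 counted among the lower ones. That is 5.25% against 4.28% of all genes tested.

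**Figure D4:**
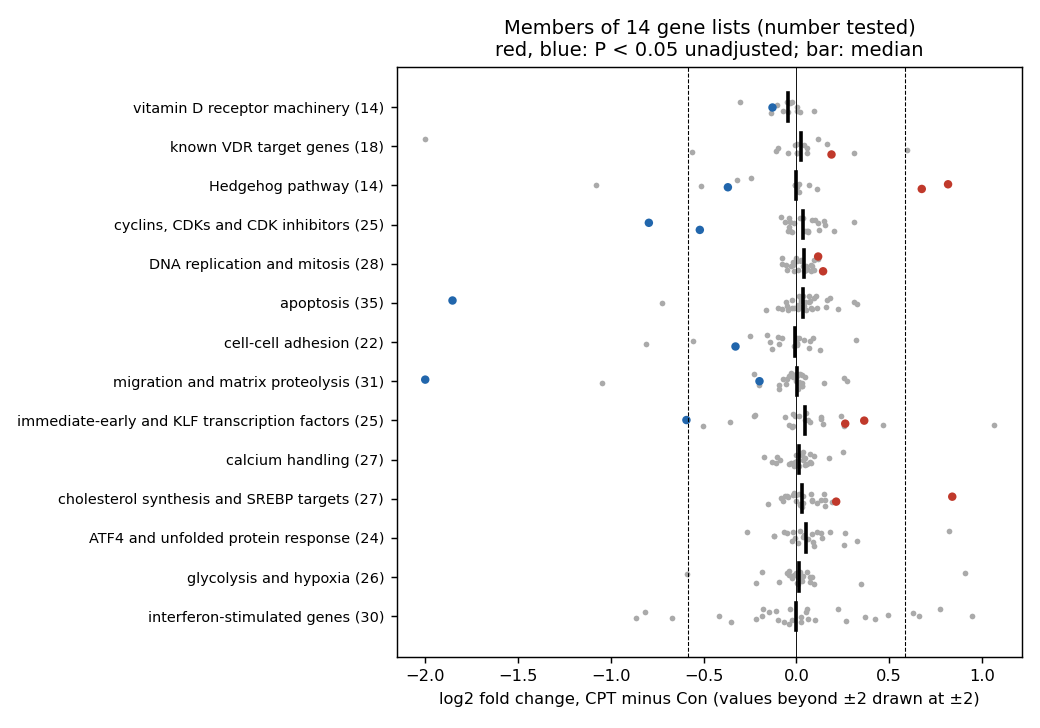
Log2 fold change (CPT minus Con) of every tested member of 14 gene lists, 1 row per list, with black bars at the medians, red and blue dots for unadjusted P under 0.05 and dashed lines at 1.5-fold. The medians run from -0.05 to 0.05, and single genes (SHH, GLI2, CCNG2, BBC3, SC5D) rather than whole lists carry the calls. Values beyond 2 in either direction are drawn at 2.

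The same genes were read in primed cells, where CPT+GTA+5-Aza and GTA+5-Aza share no library with Con and CPT. There 2.71% of all genes had P under 0.05, and 1% were also above 1.5-fold. Of the 313 DEGs, 52.7% had the same sign, against 53.1% of all genes tested. P was under 0.05 in the same direction for 14 of the DEGs and in the opposite direction for 5. Of all 17123 genes tested, 297 and 167 did so. SHH was among the 14, with 390, 387 and 384 counts in GTA+5-Aza and 500, 511 and 450 in CPT+GTA+5-Aza (0.42). DHRS3 had 258, 245 and 265 against 157, 198 and 175 (-0.44), ZNF469 -0.55 and KLF4 -0.59. Outside the DEGs, DPH6, UCA1, SEMA3D and TLNRD1 kept their sign, at -0.30, 0.16, -0.22 and 0.25, each with P under 0.05. CXCL1 had 0.20 in primed cells, with P over 0.05.

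Other genes had primed values near or across 0. CCNG2 had 119, 149 and 157 counts in GTA+5-Aza and 138, 129 and 116 in CPT+GTA+5-Aza, a log2 fold change of -0.06. MT-ND5, TNC and GLTPD2 had primed values of 0.05, 0.35 and 0.20. The interaction term, which tests the difference between primed and unprimed cells, gave these 4 genes and CXCL1 adjusted p values of 1.00 in edgeR with Benjamini-Hochberg adjustment. An unadjusted interaction P under 0.05 was found for 451 genes, 2.63% of those tested. It was found for 116 of the 313 DEGs, but the interaction holds the unprimed difference by which they were chosen, so this count is no support for a difference. After Benjamini-Hochberg adjustment 0 passed at 0.05 in edgeR's test. With no filter on low counts 11 did, and in DESeq2 0.

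**Figure D5:**
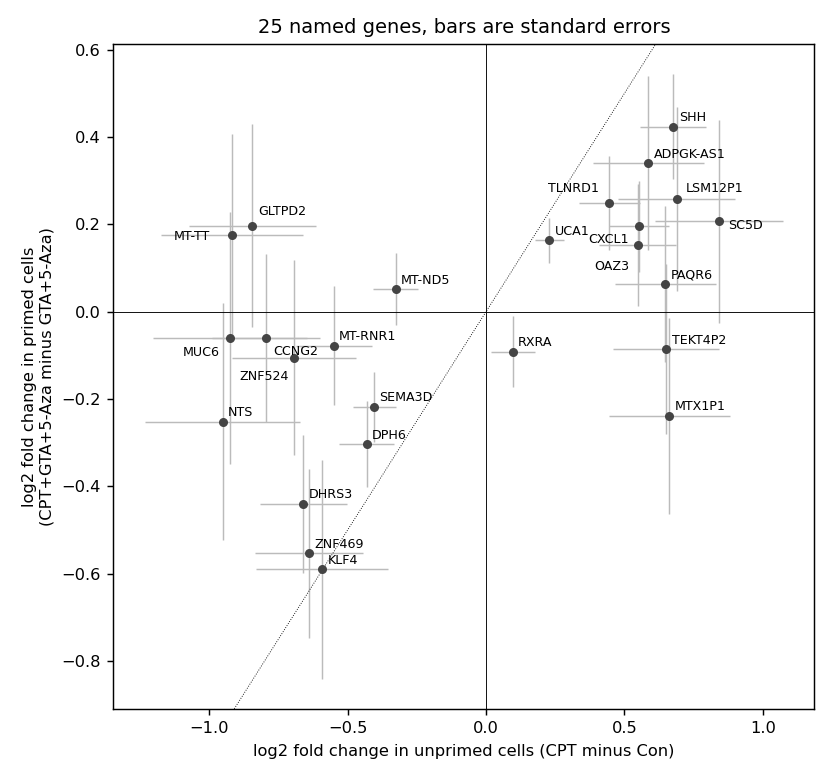
Log2 fold change with CPT in unprimed cells (horizontal) against that in primed cells (vertical) for 25 named genes with a standard error under 0.3 in unprimed cells; bars are standard errors and the dotted line marks equal values. SHH, DHRS3, ZNF469, KLF4, SEMA3D and DPH6 lie on the same side of 0 in both, while CCNG2, GLTPD2, MT-TT and MT-ND5 lie near or across 0 in primed cells.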

How the data were processed

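Raw gene counts were deposited, which the authors made from paired-end reads with HTSeq after Trim Galore and alignment by HISAT2 2.2.1 to GRCh38. The strand setting and annotation release are not given in the sources used here. Symbols came from GENCODE v44, where 52181 of 63677 identifiers were found, with 99.047% of all counts. Counts of all 12 libraries were fitted together in edgeR 4.0.16 (R 4.3.3; filterByExpr on the 4 groups, TMM scaling, glmQLFit, glmQLFTest), with DESeq2 1.42.0 as an alternative. Intervals are 95% intervals of the fitted log2 fold change, and a count of 0 allows 3 counts, for counting error only. The scripts were tested on simulated data.

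Named were SHH, CCNG2, VDR, RXRA and CYP24A1, the 10 higher and 10 lower DEGs of smallest P without overlap of libraries, the 5 higher and 5 lower of highest CPM, and list members with P under 0.05 or among the 2 most abundant. Others were chosen after their values were seen. The 14 hand-written lists and the members were chosen with earlier results of these data known. Alternatives were other scalings, filters, tests and fits, a replicate block, each library left out with the same genes tested or with the filter recomputed, and removal of GC trends. Results of some list members are counted in their lists but not reported here by name.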

Additional observations from a re-analysis of the deposited data

Results flagged for a closer look

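HSPA6 had opposite values in unprimed and primed cells, with no overlap of libraries in either. Its counts were 1, 0 and 0 in Con and 4, 6 and 9 in CPT, but 14, 13 and 12 in GTA+5-Aza and 1, 1 and 2 in CPT+GTA+5-Aza. The primed minus unprimed difference was -6.96 on the log2 scale. Adjusted p = 0.54 for that interaction term, from edgeR with Benjamini-Hochberg adjustment. The gene was picked for this pattern after its values were seen. No library had over 14 counts, so the size depends on the prior count of the fit.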

How the results depend on the processing

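Against 118 higher and 195 lower DEGs, no filter on low counts gave 313 and 439, a mean of at least 1 CPM 73 and 126, edgeR's glmTreat 49 and 78, and DESeq2 186 and 273. With each library left out in turn, higher DEGs ran from 117 to 160 and lower from 173 to 308, the last without CPT replicate 2. The 0 genes after Benjamini-Hochberg adjustment in edgeR became 10 with no filter, 1 with the replicate block, 4 in DESeq2 and 4 with GC trends removed, and 0 to 1 with each library left out (SHH without Con replicate 2). The adjusted interaction count of 0 became 11 with no filter and was 0 to 0 with each library left out. The leave-one-out fits and the fit of Con and CPT alone were first run with the low-count filter recomputed on the libraries left in, and were changed to the same genes as the main result after those values were seen. As first run, only Con and CPT in the fit gave 72 higher and 129 lower DEGs, against 84 and 146 with the same genes, and leaving out each library gave 130 to 171 higher, 189 to 319 lower, 0 to 1 after adjustment and 10146 to 10248 bounded within 1.5-fold. Genes bounded within 1.5-fold ran from 10128 to 10228 with each library left out. The fitted log2 fold change of TWIST1 ran from -4.95 to 0 with each library left out, and was 0 without Con replicate 2, the one unprimed library with its reads.

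The replicate block gave 115 higher and 197 lower DEGs and shared 283 of the 313 DEGs. Deviations of same-numbered Con and CPT libraries correlated at 0.01, 0.12 and 0.03, so the numbers were not taken as pairs, and Con replicate 1 correlated best with CPT replicate 3. In genes under 1 CPM the median standard error was 0.70 on the log2 scale, against 0.07 over 50 CPM, so a change of 1.5-fold was not detectable in most scarce genes, VDR and CDKN1A among them. Intervals cover the spread between libraries of 1 cell line only.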
